A study of Sus scrofa with 96 samples.

Results

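The 37 genes of the mitochondrial genome were described in liver and testis of 48 Danish Landrace boars, with 1 library per tissue and pig. They were chosen by their consecutive Ensembl identifiers (ENSSSCG00000018060 to ENSSSCG00000018096) and form 37 of the 25322 genes counted: 13 proteins, 2 rRNAs and 22 tRNAs. The symbol table given with the data named the 13 proteins. The rRNAs and tRNAs carried no symbol there and are named by their place in the vertebrate mitochondrial order, and the type of gene was the same at all 37 places of the RefSeq mitochondrial genome. The boars were grouped as high, medium or low boar taint by the breeding values of their sires for skatole and human nose score, with 16 pigs in each group, so the groups differ in the merit of a parent and not in a measured taint. Liver was sampled at slaughter and testis after the carcass had been held in a cold room, so that tissue and this delay cannot be told apart.

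Libraries were made with either of the stranded TruSeq kits of Illumina. The stranded mRNA kit captures polyadenylated RNA, and the other, the stranded total RNA kit, was chosen by the study where RNA was less intact. In liver 46 libraries were stranded mRNA and 2 were total RNA (pig 1306 of high and pig 3109 of low merit). In testis 34 were stranded mRNA (14 high, 13 medium and 7 low) and 14 were total RNA (2 high, 3 medium and 9 low). All total RNA libraries carried batch number 3 in the deposited tables, so the kit, that batch and RNA integrity cannot be told apart. The stranded mRNA livers were all of batch 1. The stranded mRNA testes of low merit were of batch 1, those of high merit of batch 2, and those of medium merit were split over both (7 and 6).

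The mitochondrial genome is a small circular DNA that both of its strands transcribe into long precursors. These are cut, largely at the tRNAs, into the 12S and 16S rRNAs of the mitochondrial ribosome, the mRNAs, and the tRNAs that read them. The proteins are all subunits of oxidative phosphorylation: ND1 to ND6 and ND4L belong to complex I (NADH dehydrogenase), CYTB to complex III, COX1 to COX3 to complex IV (cytochrome c oxidase), and ATP6 and ATP8 to complex V (ATP synthase). Most genes are coded on one strand, here called heavy-strand genes, while ND6 and 8 tRNAs are coded on the other and are here called light-strand genes. Liver is rich in mitochondria, and in the testis Leydig cells begin steroid synthesis inside them.

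The stranded mRNA livers held 3728775 to 12156143 reads on genes, the stranded mRNA testes 4881825 to 18045966, and the total RNA livers 3864873 and 4046334. The total RNA testes held 3689243 to 8263479, apart from that of pig 3309 (low merit). That library had 379942 reads on 940 genes, no count on any of the 18 liver and testis markers that could be matched by name, and 0 mitochondrial reads, which allows a share of up to 0.00079%. The stranded mRNA testis of pig 8308 (medium merit, batch 1) also stood apart. Its 9 testis markers summed to 678 CPM (counts scaled to one common library size) against 21340 to 41848 in the other 33 stranded mRNA testes, and its beta globin gene HBB was at 21625 CPM against at most 436. In the livers the 9 liver markers summed to 78634 CPM or more and the testis markers to at most 38.8 CPM. Results on testis are also given without pigs 3309 and 8308 where that changed a call. Fewer mitochondria-rich cells and less mitochondrial RNA per cell cannot be told apart in bulk tissue.

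In stranded mRNA livers the mitochondrial genes took a median of 13.3% of the reads on genes (lowest 4.94%, highest 38.5%, mean 14.9% ± 6.24 SD, n = 46). In stranded mRNA testes they took 3.05% (1.52% to 6.22%, mean 3.22% ± 1.13 SD, n = 34). Only 1 liver lay within the range of the testes. The highest share was that of the liver of pig 2111 (medium merit), at 38.5% (Wilson 95% interval 38.46% to 38.53%, counting error only, since PCR copies are not told apart). The total RNA livers were at 7.19% in each, which only 3 of the stranded mRNA livers lay below. In the total RNA testes the share was 4.16% and 9.85% at high merit, 3.05%, 6.33% and 6.52% at medium merit, and 2.98% to 8.44% (median 4.16%, n = 8) at low merit without pig 3309. The order of the kits in testis depended on what was counted. Of all reads, unassigned ones included, the median share was 1.77% with stranded mRNA and 1.32% with total RNA without pig 3309, and the 13 proteins alone took 2.90% and 1.22% of the reads on genes. These shares are sums over the chosen genes and are given without a test.

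**Figure D1:**
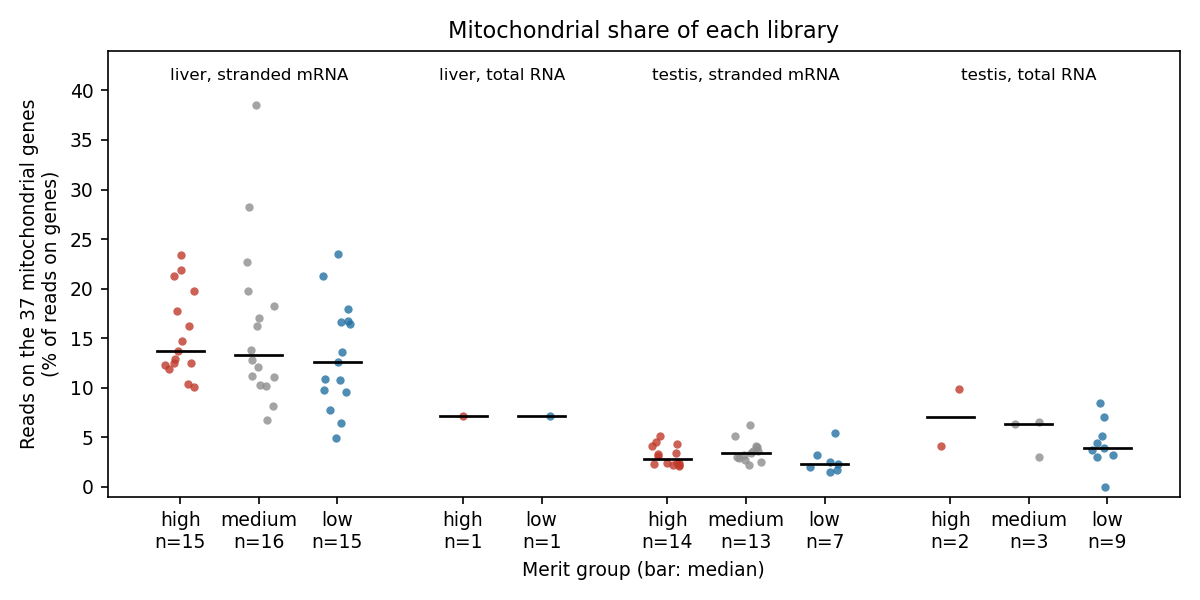
Share of the reads on genes that fell on the 37 mitochondrial genes, in percent, for each of the 96 libraries by tissue, kit and merit group; each point is 1 library and the bar is the group median. Stranded mRNA livers lie between 4.94% and 38.5% and stranded mRNA testes between 1.52% and 6.22%, and the total RNA testis at 0 is that of pig 3309.

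By merit group the stranded mRNA livers were at 10.1%, 13.7% and 23.4% (lowest, median, highest) for high, 6.77%, 13.3% and 38.5% for medium, and 4.94%, 12.6% and 23.5% for low merit. The groups overlapped over most of their ranges. In stranded mRNA testes the same values were 2.16%, 2.78% and 5.10% for high, 2.24%, 3.39% and 6.22% for medium, and 1.52%, 2.26% and 5.44% for low merit, and again the groups overlapped.

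All 13 proteins and both rRNAs had counts in 95 of the 96 libraries, the exception being the testis of pig 3309. Their levels in stranded mRNA livers and testes are given first, by complex, as CPM, a scale on which each gene can be compared between libraries but not with another gene, since it is not per length. Among the complex IV genes, COX1 (ENSSSCG00000018075), the catalytic core, spanned 12778 to 102962 CPM in liver (median 35110) and 5028 to 17310 CPM in testis (median 9841). COX2 (ENSSSCG00000018078), which receives electrons from cytochrome c, had medians of 20217 CPM in liver (6482 to 54923) and 4166 CPM in testis (2030 to 8869). COX3 (ENSSSCG00000018082) had medians of 28138 CPM (9071 to 83994) and 4539 CPM (2158 to 11911). Livers lay above testes for all 3 medians.

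CYTB (ENSSSCG00000018094), the complex III subunit that holds its quinone sites, had medians of 11292 CPM in liver (2837 to 29631) and 2119 CPM in testis (1048 to 5271). ATP6 (ENSSSCG00000018081), a part of the proton channel of complex V, had medians of 9631 CPM in liver and 1857 CPM in testis, and ATP8 (ENSSSCG00000018080) of 1273 and 277 CPM. ATP8 and ATP6, ATP6 and COX3, ND4L and ND4, and ND5 and ND6 overlap in the RefSeq genome, and reads that lie on both members of such a pair may be left uncounted, so these counts are uncertain.

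The medians of the complex I genes were also higher in liver. ND1 had medians of 6820 CPM in liver and 1330 CPM in testis, ND2 of 6045 and 1225, ND3 of 2562 and 556, ND4 of 5116 and 1010, ND4L of 590 and 123, and ND5 of 2852 and 930. ND6 (ENSSSCG00000018092) spanned 34 to 431 CPM in liver (median 168) and 10.3 to 69.3 CPM in testis (median 27.8). The 12S rRNA had medians of 1148 CPM in liver (428 to 3862) and 453 CPM in testis (155 to 1227), and the 16S rRNA of 2441 CPM (943 to 9045) and 894 CPM (362 to 2219). The ranges of all stranded mRNA livers and testes overlapped for each gene with a range given here (COX1, COX2, COX3, CYTB, ND6, both rRNAs). They also overlapped for ATP6, ATP8, ND2, ND3, ND4, ND4L and ND5, even among the pigs with a stranded mRNA library in both tissues.

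Liver was compared with testis over the 34 pigs with a stranded mRNA library in both tissues. Tissue was the only term of the main fit, so its SEs and p-values do not use the pairing by pig. With limma voom, sample quality weights and Benjamini-Hochberg adjustment over 15448 genes, all 13 proteins and both rRNAs were higher in liver, against 93.6% of all genes called and 25.9% called higher in liver. The 16 members tested had a median log2 fold change of 2.26, and all genes one of −1.43. This scale uses library sizes without further scaling. With TMM factors the median of all genes moved to 0.01 and that of the members to 3.71, and 50.1% of the genes called were higher in liver against 27.7% without them.

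The largest protein difference was that of COX3, with a log2 fold change of 2.64 (SE 0.12, adjusted p = 1.4e-34), followed by CYTB with 2.50 (SE 0.11) and ATP6 with 2.45 (SE 0.11). ND5 had the smallest among the proteins, 1.60 (SE 0.14, adjusted p = 8.59e-18). The other heavy-strand proteins lay from 2.03 (COX1, SE 0.09) to 2.42 (ND4, SE 0.11), and ND6 was at 2.42 (SE 0.18). The rRNAs were at 1.17 (SE 0.17, adjusted p = 3.27e-09) (12S) and 1.38 (SE 0.16, adjusted p = 3e-12, 16S). Within pigs, liver was above testis in 34 of 34 pairs for 12 of the proteins, in 33 of 34 for ND5, and in 31 of 34 for each rRNA. Among the libraries of these 34 pigs, the liver and testis ranges did not overlap for ND1, COX1, COX2, CYTB and tRNA-Ser(UCN), 5 of the 16 members tested. There 4.77% of all genes lay wholly higher in liver. Over all stranded mRNA livers, those outside the pairs included, the ranges of COX1, COX2 and CYTB did overlap with those of the testes. All 16 calls held with the pig as a block, with testes of batch 1 alone and without the testis of pig 8308.

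The make-up of the mitochondrial reads differed between kits. As shares of reads, again not per length, the rRNAs held a median of 2.69% of the mitochondrial reads in stranded mRNA livers (1.06% to 16.0%) and 4.62% in stranded mRNA testes (1.49% to 11.6%). In total RNA libraries they held 69.0% and 59.6% in the livers of pigs 1306 and 3109, and 62.9% to 81.3% in the 13 total RNA testes with mitochondrial reads (median 71.8%). No total RNA library overlapped with a stranded mRNA library. COX1 held 27.6% ± 2.78 (SD, n = 46) of the mitochondrial reads in stranded mRNA livers and 32.3% ± 3.24 (n = 34) in stranded mRNA testes, and 15.0% (n = 2) and 13.5% (n = 13) in total RNA libraries. COX3 held 20.7% in stranded mRNA livers and 15.9% in stranded mRNA testes.

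**Figure D2:**
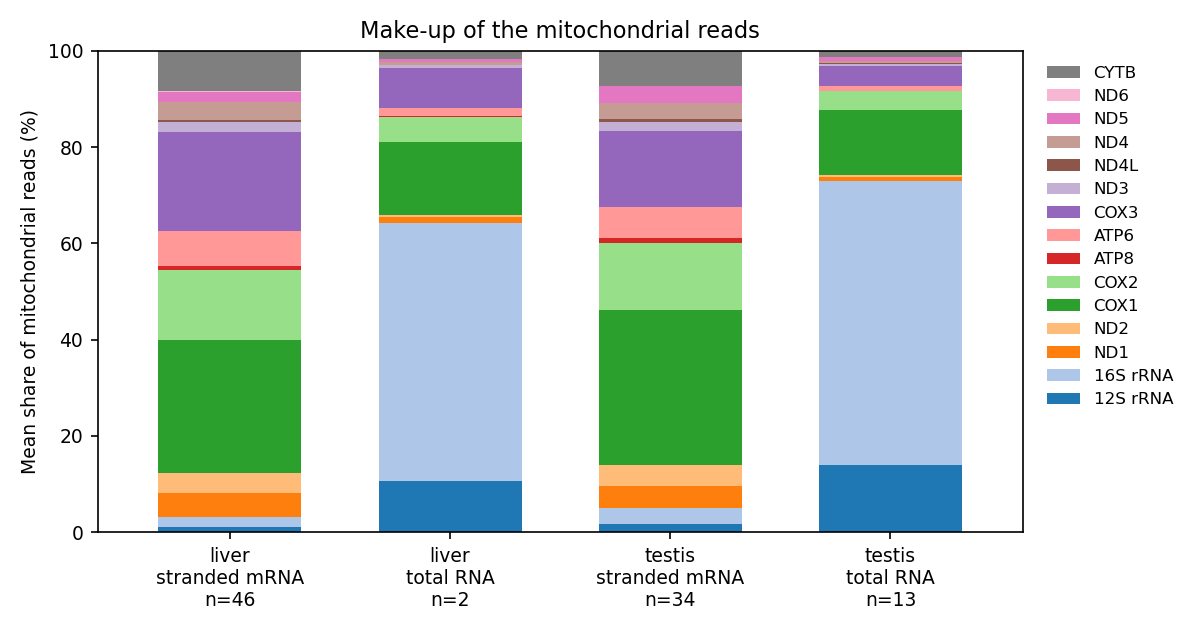
Mean share of the mitochondrial reads on each protein and rRNA gene, in percent, by tissue and kit, stacked in genome order from 12S rRNA at the bottom to CYTB at the top; the testis of pig 3309 has no mitochondrial reads and is left out. The rRNAs hold 3.21% and 4.97% of the reads in stranded mRNA livers and testes and 64.3% and 72.8% in total RNA ones.

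In testis, the total RNA libraries (n = 14) were compared with the stranded mRNA libraries (n = 34), with the merit group as a covariate. Of 15334 genes 66.3% were called, 27.1% higher and 39.2% lower with total RNA. With TMM factors 54.0% of the genes called were higher, against 40.9% without them. The rRNAs were at 15861 to 58077 CPM for 16S and 3511 to 19361 CPM for 12S in the total RNA testes other than that of pig 3309, and did not overlap with the stranded mRNA testes. Their log2 fold changes were 5.03 (SE 0.24, adjusted p = 8.07e-25) and 3.85 (SE 0.27, adjusted p = 7.12e-18). Wholly separate ranges with total RNA higher were found for 2.99% of all genes.

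All 12 heavy-strand proteins were lower with total RNA in testis. ATP8 had 20.7 to 101 CPM in the total RNA testes without pig 3309 and 129 to 701 CPM in the stranded mRNA testes, with no overlap (1.17% of all genes were so separated in this direction) and a log2 fold change of −2.68 (SE 0.20, adjusted p = 8.23e-17). ND4 followed with −2.32 (SE 0.20), ND2 with −2.18 (SE 0.21), CYTB with −1.67 (SE 0.18) and ATP6 with −1.61 (SE 0.18). ND1 (−1.49), ND3 (−1.48), ND5 (−1.37), COX3 (−1.02), COX2 (−1.02) and ND4L (−0.87) fell less, and COX1 least, by 0.47 on the log2 scale (SE 0.13, adjusted p = 0.00137). The genes of one complex did not share a value, as COX1 and COX3 of complex IV and ATP6 and ATP8 of complex V show.

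ND6, the light-strand protein, went the other way in testis, with 24.0 to 74.9 CPM (median 51.5) in total RNA against 10.3 to 69.3 CPM (median 27.8) in stranded mRNA. Its log2 fold change was 0.76 (SE 0.23, adjusted p = 0.00337), and the ranges overlapped. The call was lost with edgeR (0.73, adjusted p = 0.0681), with DESeq2 (0.68, adjusted p = 0.0525), with voom without quality weights (0.53, adjusted p = 0.202), and within the medium (0.20) and high (0.78) merit groups, and it held within the low group (1.05, adjusted p = 0.00385). COX1 lost its call with edgeR (adjusted p = 0.284), with DESeq2 (adjusted p = 0.155), with voom without weights (−1.95, adjusted p = 0.105) and within the low and high groups. The edgeR, DESeq2 and unweighted fits kept the testis of pig 3309 and were not run without it. COX1 was at 0 CPM in that testis and at 4505 to 11190 CPM in the other total RNA testes. The part of that library in the lost calls was not tested. The share of all reads that fell on no gene, which also differed between kits, had a median of 42.0% in total RNA testes without pig 3309 and 27.3% in stranded mRNA testes, and its part in these results was not tested.

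In liver only the 2 total RNA libraries of pigs 1306 and 3109 could be set against the 46 stranded mRNA libraries, again with the merit group as a covariate. Of 12225 genes 44.9% were called, 28.3% higher and 16.6% lower. The 16S rRNA was at 43761 and 33456 CPM in them, 3.91 higher on the log2 scale (SE 0.42, adjusted p = 5.92e-11), and 12S at 5853 and 9381 CPM, 2.61 higher (SE 0.47, adjusted p = 7.03e-06). All 13 proteins were lower, ND6 included. ATP8 was at 83.3 and 73.4 CPM, with a log2 fold change of −3.95 (SE 0.35, adjusted p = 1.51e-13), ND4 was at −3.91 (SE 0.27) and ND2 at −3.66 (SE 0.34). COX1 was at 9214 and 12391 CPM, with −1.80 (SE 0.28, adjusted p = 4.66e-07), the smallest change of the heavy-strand proteins. The 12 heavy-strand proteins lay wholly below the stranded mRNA livers, as did 6.19% of all genes, and both rRNAs wholly above them, as did 15.8%. The members' median log2 fold change was −2.51 and that of all genes 0.10.

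ND6 was at 61.6 and 101 CPM in the total RNA livers, inside the stranded mRNA range, with a log2 fold change of −1.28 (SE 0.44, adjusted p = 0.0159). Without pig 1306 the change was −0.99 (adjusted p = 0.436) and without pig 3109 −1.57 (adjusted p = 0.161), with the lone library then assumed to vary like the others. It kept its call with DESeq2 (adjusted p = 0.0387) and lost it with edgeR (adjusted p = 0.0897) and without quality weights (adjusted p = 0.083). Relative to CYTB, ND6 took more reads in total RNA libraries of both tissues. It had a median of 13.9 reads per 1000 CYTB reads in stranded mRNA livers (2.50 to 93.2) and 50.9 and 83.6 in the total RNA livers, and 11.9 (5.12 to 43.6) and 77.5 (43.9 to 119) in stranded mRNA and total RNA testes. This ratio was not tested.

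The change of kit was set against itself between tissues as an interaction term over all 96 libraries. The fit held the merit group in each tissue and no term for the pig, so liver and testis of a pig were treated as independent. The change of kit was more negative in liver for all 13 proteins, from −1.20 (COX3, SE 0.39, adjusted p = 0.0108) to −2.04 (ND6, SE 0.54, adjusted p = 0.00199), where 34.5% of 15407 genes were called and 8.02% lower. The median of all genes was 0.33. For the rRNAs it was −1.23 (SE 0.57, adjusted p = 0.0833) for 12S and −1.12 (SE 0.50, adjusted p = 0.0721) for 16S, and no difference was called. With edgeR none of the proteins was called, ND6 being nearest at −2.10 (adjusted p = 0.134), and 6 of the 17 members tested had an unadjusted p under 0.05, against 17.0% of all genes.

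**Figure D3:**
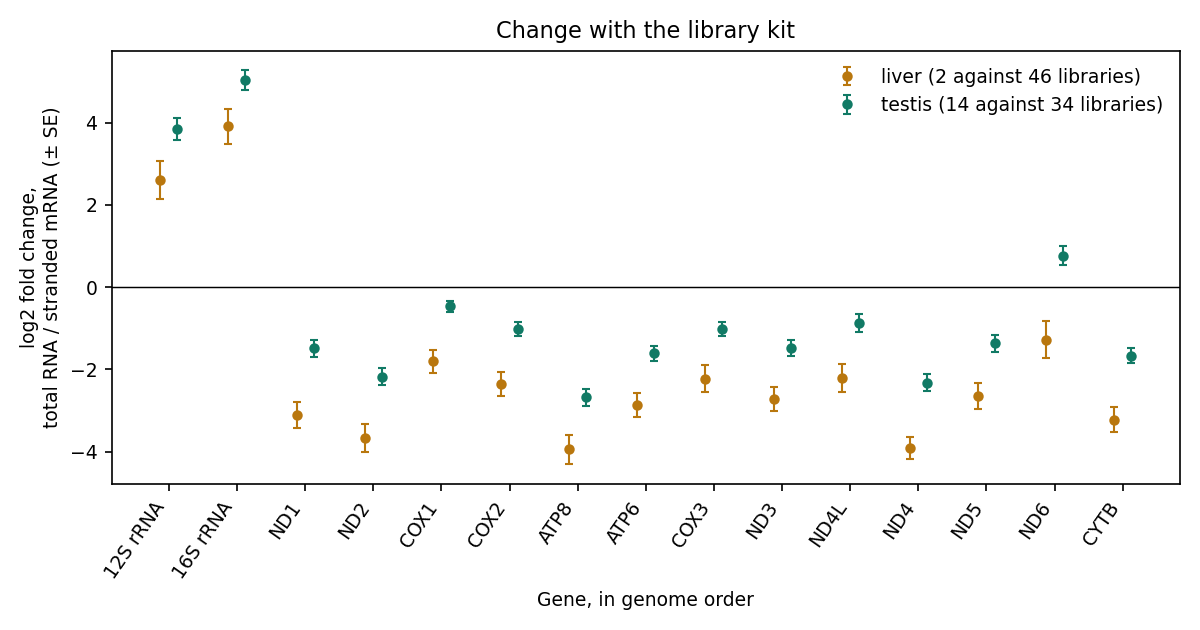
Log2 fold change of total RNA over stranded mRNA libraries for each protein and rRNA gene, in genome order, in liver and in testis, with points as estimates of limma voom and bars as 1 SE. The rRNAs lie above 0 in both tissues, the heavy-strand proteins below 0, and ND6 at −1.28 in liver and 0.76 in testis.

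The tRNAs took few reads, 7996 in all libraries or 0.0102% of the mitochondrial reads. Of 22 tRNA genes, 15 had a count in at least 1 library and 7 had none (tRNA-Val, Leu(UUR), Gly, Arg, His, Ser(AGY) and Leu(CUN)), which allows at most 3 reads over all libraries for each. All 7 without counts were heavy-strand genes. The 8 light-strand tRNAs all had counts and held 6878 of the reads, and tRNA-Ser(UCN), which lies opposite the 3′ side of COX1, held 5630. Its level was 2.41 to 38.6 CPM in stranded mRNA livers (median 11.5) and 0.11 to 1.95 CPM in stranded mRNA testes (median 0.63).

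Only 4 tRNAs passed the mean count of 5 in any fit described here: tRNA-Ser(UCN), Gln and Ala in liver, and Ser(UCN) and Trp in testis. For tRNA-Ser(UCN) the fold between tissues was 3.98 on the log2 scale (SE 0.20, adjusted p = 1.35e-30). In total RNA livers it was at 1.55 and 1.73 CPM, a log2 fold change of −2.83 (SE 0.84, adjusted p = 0.00471), and this call was lost without either of them. In total RNA testes it was not called (0.31, SE 0.26, adjusted p = 0.288). It was the one member whose difference between tissues in the change of kit was called by edgeR too (−3.42, adjusted p = 0.00471). These comparisons rest on 6 and 7 reads of this tRNA in the total RNA livers. The total RNA testes with mitochondrial reads had 3 to 13. tRNA-Trp passed the minimum in testis through the total RNA libraries, with a median of 4.28 CPM in the 13 with mitochondrial reads and 0.44 CPM in stranded mRNA testes, and is given as a description without a test, also between merit groups.

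CYTB was set against 3 other heavy-strand mRNAs, ND6 and the 12S rRNA among the 46 stranded mRNA livers, which share 1 batch. On log2 CPM, CYTB correlated with ND1 at Pearson's r = 0.97 and Spearman's rho = 0.98 (permutation p = 1e-05 for each, the smallest 100000 permutations can give, adjusted p = 1.75e-05) and r = 0.96 without the 2 livers farthest from the median of CYTB. CYTB and COX3 gave r = 0.96 and rho = 0.96 (permutation p = 1e-05, adjusted p = 1.75e-05, r = 0.95 without the 2 livers). CYTB and ND6 moved together less closely, with r = 0.44 and rho = 0.57 (permutation p = 0.00212 and 6e-05, adjusted p = 0.00247) and r = 0.55 without the 2 livers.

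CYTB and the 12S rRNA gave r = 0.34 and rho = 0.43 (permutation p = 0.0193 and 0.00358, adjusted p = 0.0193), with r = 0.52 without the 2 livers. The rRNAs followed each other, with r = 0.82 and rho = 0.83 (permutation p = 1e-05, adjusted p = 1.75e-05, r = 0.80 without the 2 livers). So did the light-strand genes ND6 and tRNA-Ser(UCN), with r = 0.85 and rho = 0.80 (permutation p = 1e-05, adjusted p = 1.75e-05, r = 0.83 without the 2 livers farthest from the median of ND6). CYTB and ND4L gave r = 0.64 and rho = 0.59 (permutation p = 2e-05 and 6e-05, adjusted p = 2.8e-05, r = 0.52 without the 2 livers farthest from the median of CYTB). These 7 relations were chosen after the values were seen, p-values were adjusted over them, and CPM values of one library share its total. The other heavy-strand mRNAs were not examined in this way.

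Merit was compared in liver over all 48 libraries and 12225 genes. Between high and low merit, 3.36% of all genes and none of the 18 members tested were called. None had an unadjusted p under 0.05 in limma (17.2% of all genes), and neither edgeR (none unadjusted) nor DESeq2 (1 unadjusted) called a member. With TMM factors 24.6% of the genes called were higher in high merit, against 3.89% without them. The members' median log2 fold change was 0.22 and that of all genes −0.07. The nearest was ND5 at 0.43 (SE 0.22, adjusted p = 0.306, 95% interval 0.00 to 0.85), and COX1 was at 0.20 (95% interval −0.15 to 0.55). Between high and medium merit 0.0982% of all genes and no member were called, with 4 members at an unadjusted p under 0.05 (14.9% of all genes) and none called by edgeR (none unadjusted) or DESeq2 (1 unadjusted).

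Between medium and low merit in liver, 15.5% of all genes were called, 14.6% lower in medium. With TMM factors 53.1% of the genes called were higher in medium, against 5.90% without them, and the median of all genes moved from −0.19 to −0.01. Of the 18 members tested, 2 were called, a smaller share than among all genes. Both were light-strand genes and lower in medium livers. ND6 was at 34, 81.4 and 431 CPM (lowest, median, highest) in the stranded mRNA livers of medium, at 94.7, 174 and 421 CPM in those of low, and at 108, 172 and 324 CPM in those of high merit. In medium 10 of 16 livers lay below the median of all stranded mRNA livers, against 6 of 15 in low and 7 of 15 in high merit, and the groups overlapped. The log2 fold change was −1.20 (SE 0.27, adjusted p = 0.00345), and tRNA-Ser(UCN) had −0.83 (SE 0.27, adjusted p = 0.0295) with medians of 8.47 CPM in medium and 11.7 CPM in low merit.

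The other light-strand genes tested, tRNA-Gln and tRNA-Ala, had log2 fold changes of −0.88 (adjusted p = 0.0922) and −1.17 (adjusted p = 0.157). The 12 heavy-strand proteins lay from 0.01 (ND4L) to 0.29 (ND4), none of them called, with CYTB at 0.18 (SE 0.23, adjusted p = 0.627). Per 1000 reads of CYTB, ND6 had a median of 7.84 reads in medium, 18.4 in low and 14.3 in high merit.

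Neither call held without the sample quality weights or with the count models. ND6 had an adjusted p of 0.0622 without sample quality weights (−0.87), 0.634 with edgeR (−0.29) and 0.629 with DESeq2 (−0.28), and tRNA-Ser(UCN) was at 0.05 with edgeR, with the sign turned. With TMM factors before voom ND6 kept its call (−0.96, adjusted p = 0.0325) and tRNA-Ser(UCN) lost it (−0.63, adjusted p = 0.144). The median over the 18 members was 0.57 with edgeR, where 7 had an unadjusted p under 0.05 (20.1% of all genes), and 0.58 with DESeq2, where 10 had (21.2%). The share of reads on no gene also differed by group in these livers, with medians of 31.3% in medium, 34.9% in low and 36.4% in high merit. The summed level of the 2 immune markers, PTPRC and CD68, had medians of 60.9 CPM in medium, 90.3 in low and 84.5 in high merit, and that of HBB, the blood marker matched by name, 1344, 2204 and 1329 CPM. The part of these in the results for ND6 and tRNA-Ser(UCN) was not tested. If strand was not kept in counting, reads from the heavy-strand RNA opposite ND6 and the light-strand tRNAs would be counted with them.

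**Figure D4:**
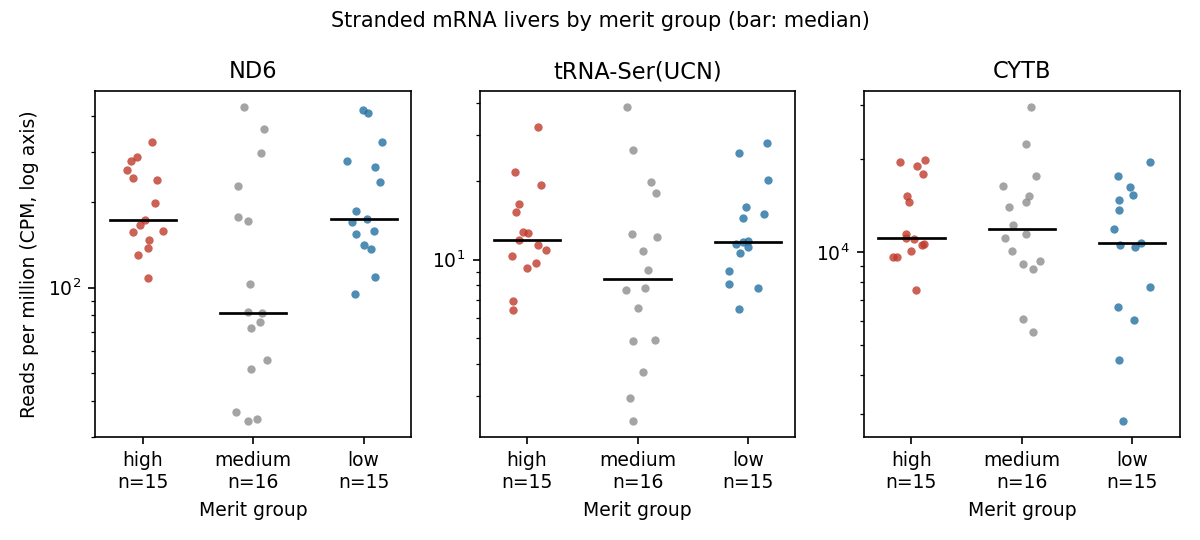
Levels of ND6, tRNA-Ser(UCN) and CYTB in CPM on a log axis in the 46 stranded mRNA livers, by merit group; each point is 1 liver and the bar is the group median. ND6 has a median of 81.4 CPM in medium livers against 174 and 172 CPM in low and high ones, while the medians of CYTB are 11886, 10680 and 11136 CPM.

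In testis the merit groups were first compared over all 48 libraries with merit as the only term. Between high and low merit 52.8% of 15334 genes were called, 31.5% higher and 21.3% lower in high merit. With TMM factors 47.2% of the genes called were higher, against 59.6% without them. All 12 heavy-strand proteins were higher in high merit, led by ATP8 with a log2 fold change of 2.49 (SE 0.34, adjusted p = 2.62e-06), ND2 with 2.11 (SE 0.31, adjusted p = 2.92e-06) and ATP6 with 1.62 (SE 0.24, adjusted p = 3.29e-06). The 16S rRNA was lower, at −3.54 (SE 0.56, adjusted p = 5.03e-06), the 12S rRNA was at −2.40 (SE 0.46, adjusted p = 4.54e-05), and ND6 at −0.65 (SE 0.24, adjusted p = 0.0233). Between medium and low merit 38.4% of genes were called, 24.3% higher and 14.1% lower (41.5% of the calls higher with TMM factors, 63.3% without), and the same 12 proteins were higher and both rRNAs lower, with ATP8 at 2.36 (SE 0.35), ND2 at 2.19 (SE 0.31) and ATP6 at 1.62 (SE 0.25). Between high and medium merit 0.0326% of genes and none of the 17 members tested were called, with no member at an unadjusted p under 0.05 in limma, edgeR or DESeq2. None of the calls between high and low merit was made by edgeR (4 members at an unadjusted p under 0.05, 10.4% of all genes), by DESeq2 (7 members, 15.7%) or by voom without quality weights (12 members, 24.5%). None of those between medium and low merit was made either, with 9 members (13.0% of all genes), 10 (8.91%) and 12 (14.8%) at an unadjusted p under 0.05.

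The kit moved with the merit groups, since 9 of 16 testes of low merit were total RNA libraries against 3 of 16 of medium and 2 of 16 of high merit. All proteins and both rRNAs went in the direction opposite to their change with the kit. With the kits so divided, merit and kit cannot be told apart in the fit with merit as the only term. With the kit as a covariate 2.39% of genes were called between high and low merit, and ATP8 was the only member called, 0.67 higher in high merit (SE 0.19, adjusted p = 0.0444). The rRNAs were then at 0.24 (12S, SE 0.30, adjusted p = 0.693) and −0.02 (16S, SE 0.26, adjusted p = 0.981), ND6 was at −0.15 (SE 0.25), ND2 at 0.59 (SE 0.21, adjusted p = 0.121), COX3 at 0.49 (SE 0.17, adjusted p = 0.099) and ATP6 at 0.48 (SE 0.18, adjusted p = 0.132). The median over the 17 members was 0.37 and over all genes −0.01. ATP8 held its call without pigs 3309 and 8308 (adjusted p = 0.0444) and lost it with batch as a covariate (0.73, adjusted p = 0.183, 0.45% of genes called) and in stranded mRNA libraries alone (0.66, SE 0.23, adjusted p = 0.14, 1.28% of genes called).

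In stranded mRNA testes ATP8 was at 150, 308 and 654 CPM (lowest, median, highest) in high, 251, 326 and 701 CPM in medium and 129, 212 and 599 CPM in low merit. The highest value was that of pig 8101 in low and of pig 8308 in medium merit, and the groups overlapped. In total RNA testes ATP8 was at 35.3 and 101 CPM in high, at 29.7, 41.8 and 83.6 CPM in medium and at 20.7 to 64.5 CPM (median 32.2, n = 8) in low merit without pig 3309. The 16S rRNA was at 459, 786 and 1619 CPM in high and 362, 1015 and 1905 CPM in low merit in stranded mRNA testes, with the groups overlapping throughout.

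With the kit as a covariate no gene of 15334 and no member was called between medium and low merit. Of the 17 members 11 had an unadjusted p under 0.05 (8.65% of all genes), as did 9 with edgeR (13.0%) and 10 with DESeq2 (8.91%). Both count models were run without the covariate and called no member. Genes of one library are not independent, so such counts, here and in the other comparisons, are not counts of separate results. Within batch 1, where 7 testes of medium and 7 of low merit were all stranded mRNA, none of the 16 members and no gene was called, with 12 members at an unadjusted p under 0.05 in limma (14.6% of all genes) and none in edgeR (19.5%) or DESeq2 (13.0%). The members' median log2 fold change was 0.63 there and that of all genes 0.08, with ND2 at 0.93 (SE 0.24, adjusted p = 0.2), CYTB at 0.75 (SE 0.19, adjusted p = 0.2) and COX1 at 0.45 (SE 0.16, adjusted p = 0.235). These values include the medium testis of pig 8308, which stood apart in its markers and had the highest mitochondrial share of its group (6.22%). Within batch 2, 14 testes of high and 6 of medium merit gave a members' median of 0.04, with none of 17 members called, none at an unadjusted p under 0.05 in limma (4.13% of all genes) and 1 each in edgeR and DESeq2, which called none, and 0.00659% of all genes called. High and low merit shared no stranded mRNA batch in testis. With batch as a covariate their contrast rests on the medium testes of both batches and on the total RNA testes, and 9 of the 17 members then had an unadjusted p under 0.05, against 13.3% of all genes.

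**Figure D5:**
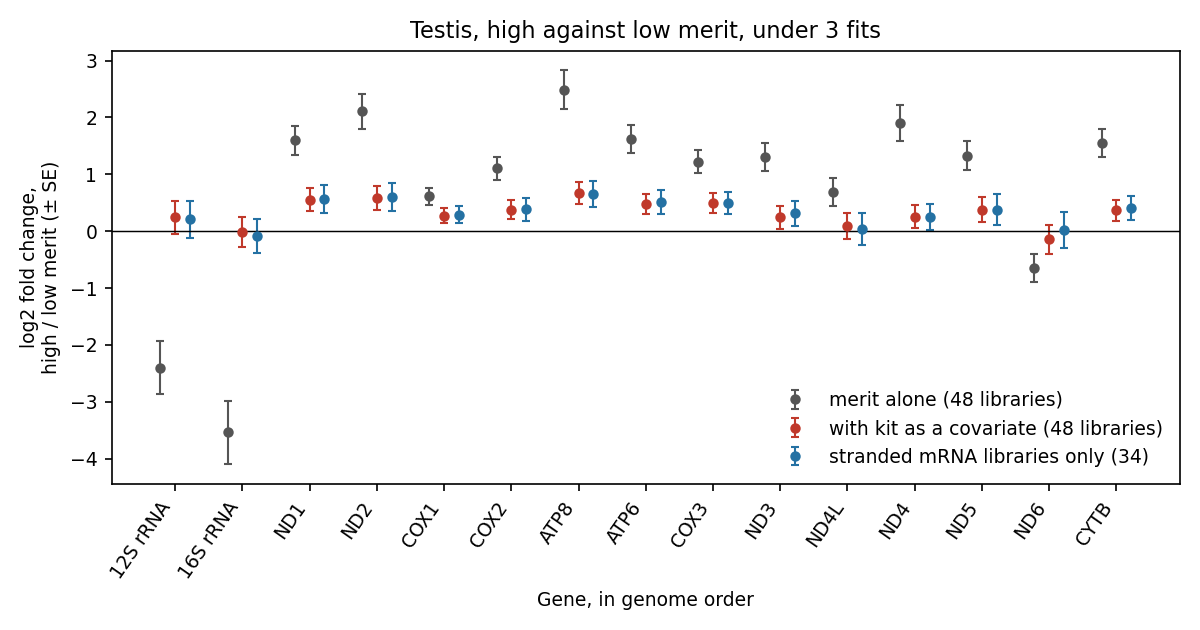
Log2 fold change of high over low merit in testis for each protein and rRNA gene, in genome order, from 3 fits of limma voom; points are estimates and bars 1 SE. With merit as the only term the estimates run from −3.54 (16S rRNA) to 2.49 (ATP8), and with the kit as a covariate from −0.15 (ND6) to 0.67 (ATP8).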

How the data were processed

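RNA-seq was made from liver and testis of 48 pigs (96 samples). The authors trimmed reads with cutadapt 1.8.1 and Trimmomatic 0.33, mapped them with STAR to Sscrofa10.2 and deposited raw counts of reads per Ensembl gene from HTSeq 0.6.0 run with default parameters. The strand setting in effect was not tested, and copies of mitochondrial sequence in the nuclear genome can take or hide reads. Groups, kits and pigs came from the labels, and batch numbers from the deposited tables.

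Genes with a mean count above 5 were fitted with voomWithQualityWeights in limma 3.58.1 (R 4.3.3) on library sizes without scaling (voom with sample quality weights is the study's method, and the scaling was chosen here), and called at an adjusted p under 0.05. edgeR 4.0.16 (quasi-likelihood test, TMM), DESeq2 1.42.0 and other filters, library sizes and covariates were alternatives. On simulated data with 200 genes changed by 1 on the log2 scale, 190 were recovered for merit in liver, 11 for the kit in liver and 94 for batch 1 in testis. Unassigned reads were left out of library sizes. Liver and testis were paired by pig number, which marks the same animal, and their deviations from the tissue means correlated at a median of 0.03 over 34 pairs.

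Named were all proteins and rRNAs for tissue and kit, and for merit every called member, or the 3 of lowest adjusted p above 5 calls. ND6, the rRNAs and the genes shown as not called were named besides. The members, lists and tests were chosen with earlier results of these data known. A list of nuclear subunits and one of mitochondrial transcription factors were to be counted if 80% had names. Only 41 of 76 and 7 of 10 did, so they were not used. The testis markers matched 9 of 14 and the liver markers 9 of 10. Pigs of a group may share a sire. The merit fits had no term for the sire, so their SEs and p-values treat the pigs as independent.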

Additional observations from a re-analysis of the deposited data

Results flagged for a closer look

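In 4 groups of stranded mRNA or total RNA testes with 4 to 10 libraries, the share of mitochondrial reads and the levels of the proteins and rRNAs were examined for a library far from the rest of its group. Of 64 tests 18 found one, where chance gives about 1 in 20, and genes of one library are not independent. In low merit of batch 1, pig 8101 was highest for ND2 (2406 CPM), ATP8 (599 CPM), ATP6 (3520 CPM), ND4L (324 CPM), ND4 (2020 CPM) and ND5 (2432 CPM). In medium merit of batch 1, pig 8308 was highest for the share (6.22%) and for COX2 (8869 CPM), ATP8 (701 CPM), ATP6 (5653 CPM), COX3 (11911 CPM), ND3 (1552 CPM), ND4 (3525 CPM) and CYTB (5271 CPM). That is also the testis with the fewest reads on testis markers and the most on HBB among the stranded mRNA testes, and their part in its mitochondrial levels was not tested. In medium merit of batch 2, pig 8106 was highest for COX2 (7486 CPM), ND4L (266 CPM) and CYTB (4152 CPM). Among the low merit total RNA testes, pig 3309 was lowest for COX1 (0 CPM).

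The change from stranded mRNA to total RNA differed between tissues for 14 members by the interaction term in limma (liver change minus testis change on the log2 scale). The difference was −3.16 for tRNA-Ser(UCN), −2.04 for ND6, −1.63 for ND1, −1.59 for ND4, −1.55 for CYTB, −1.49 for ND2, −1.35 for ND4L, −1.34 for COX2, −1.33 for COX1, −1.28 for ND5, −1.27 for ATP8, −1.26 for ATP6, −1.22 for ND3 and −1.20 for COX3. It rests on 2 total RNA livers, in which tRNA-Ser(UCN) had 6 and 7 reads.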

How the results depend on the processing

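Of the alternatives, 757 values kept direction and side of the threshold, 109 lost the call, 33 moved otherwise and 12 reversed. For the kit in testis 25 of 27 members were called without a minimum count (64.7% of all genes) and 8 of 17 within high merit (35.7%). The members added without the minimum were tRNAs with a mean count of at most 2.75 in testis. With them the members called higher went from 4 to 13, and at counts so near 0 these calls are not read as changes with the kit. Both the 17 members tested and the 4 called higher include tRNA-Trp. It passed the minimum through the total RNA libraries, so its call is not read as a change with the kit either. Leaving out 1 library at a time where a group of a kit held 5 or fewer gave 16 calls each in testis and 14 each in liver. For medium against low in liver, edgeR, DESeq2 and voom without weights called 0, and TMM factors, 10 counts in every library, and library sizes without mitochondrial genes 1 each. High against medium in liver gave 1 without a minimum. For high against low in testis, edgeR, DESeq2, voom without weights, batch as a covariate and stranded mRNA alone called 0, and the kit as a covariate 1, also without pigs 3309 and 8308, without pig 3309 alone or with library sizes without mitochondrial genes. All of these called 0 for medium against low in testis. For the change of kit between tissues edgeR called 1. Fits of all testes with at least 10 counts everywhere held no member, since pig 3309 had none.

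Signs turned for tRNA-Ser(UCN) in liver, medium against low (0.046 with edgeR, 0.068 with DESeq2). For high against low in testis they turned for 12S rRNA, to 0.20 without weights, 0.21 in stranded mRNA alone, 0.35 with batch, 0.24 with the kit, 0.25 with the kit without pigs 3309 and 8308, 0.24 without pig 3309 alone, and 0.27 with library sizes without mitochondrial genes. They turned for 16S rRNA (0.059 with batch, 0.011 with the kit and those library sizes) and ND6 (0.021 in stranded mRNA alone). The median share of all reads, unassigned ones included, was 7.10% in stranded mRNA and 1.68% in total RNA livers, 1.77% in stranded mRNA testes and 1.28% in total RNA testes (1.32% without pig 3309). That of the 13 proteins in reads on genes was 12.9%, 2.57%, 2.90% and 1.18% (1.22% without pig 3309) in the same order, so that total RNA testes lay below stranded mRNA testes on both and above them for all 37 genes in reads on genes. With the pig as a replicate block the comparison of tissues called 16 of 16 members and no call changed. The depth of pig 3309's testis limits what its 0 counts show. The causes of these changes were not tested.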
